A study of Mus musculus with 6 samples.

Results

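The matrix metalloproteinases and their tissue inhibitors were described in J110 and SSM3 cells through 10 genes chosen by name: the metalloproteinases Mmp2, Mmp3, Mmp9, Mmp11, Mmp13, Mmp14 and Mmp15 and the inhibitors Timp1, Timp2 and Timp3. These are 10 of the 27 Mmp and Timp genes and of the 52636 genes in the count table, and all 10 had at least 1 count in some library. RNA from 3 biological replicates of each line was sequenced from its 3′ ends. J110 is a tumour cell line from transgenic mice in which the MMTV long terminal repeat drives a cDNA of AIB1, a coactivator of nuclear receptors. SSM3 is a mammary tumour line from mutant mice that is grown in 129SvEv hosts. Each line is 1 cell line, grown in its own medium, with more serum and more CO2 for SSM3, and no treatment was given, so line, mouse strain, transgene and culture conditions cannot be told apart in any comparison. Both lines were grown as cells in culture, so that stroma, vessels and leukocytes of a tumour were not sampled. The study compared the lines as models of oestrogen receptor positive breast cancer.

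Matrix metalloproteinases are zinc-dependent endopeptidases that cut collagens, laminins, fibronectin and many cell surface proteins, and they are made as inactive proenzymes whose propeptide must be removed. Most are secreted, whereas the membrane-type enzymes stay anchored at the cell surface. The TIMP proteins bind the active site of these enzymes and block it, so the balance of enzyme and inhibitor is widely used to describe matrix turnover in mammary gland remodelling and in invasive breast cancer. RNA levels, as measured here, carry no information on activation of the proenzymes or on secreted protein.

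The sequences just upstream of the genes are shown for the secreted enzymes of the chromosome 9 cluster, whose levels went in opposite directions, and for a membrane-type enzyme and an inhibitor. Windows of 250 bases before the RefSeq start were read in build GRCm38.p6 for 8 of the 10 genes, all but Mmp2 and Mmp9. They are written 5′ to 3′ on the coding strand, and capitals mark the letters searched on both strands: TGAGTCA for AP-1, AGGAAG for ETS factors, TGTGGT for RUNX factors, GGGCGG for SP1 and TATAAA for a TATA box. Windows are given for the listed genes Mmp13 (chr9:7272264-7272513), Mmp3 (chr9:7445572-7445821), Mmp14 (chr14:54431348-54431597) and Timp1 (chrX:20869916-20870165) and for Mmp10 (chr9:7502092-7502341), a neighbour of Mmp3. All lie on the forward strand and hold no annotated exon base of their gene.
Mmp13: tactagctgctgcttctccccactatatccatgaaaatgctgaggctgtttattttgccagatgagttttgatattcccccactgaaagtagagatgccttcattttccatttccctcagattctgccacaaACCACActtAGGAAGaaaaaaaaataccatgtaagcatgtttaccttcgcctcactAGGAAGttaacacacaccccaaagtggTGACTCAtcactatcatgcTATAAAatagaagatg
Mmp3: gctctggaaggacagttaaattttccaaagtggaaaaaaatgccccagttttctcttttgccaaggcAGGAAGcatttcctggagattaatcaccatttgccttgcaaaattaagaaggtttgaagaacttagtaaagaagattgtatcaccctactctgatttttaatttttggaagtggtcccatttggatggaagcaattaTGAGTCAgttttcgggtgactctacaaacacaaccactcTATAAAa
Mmp10: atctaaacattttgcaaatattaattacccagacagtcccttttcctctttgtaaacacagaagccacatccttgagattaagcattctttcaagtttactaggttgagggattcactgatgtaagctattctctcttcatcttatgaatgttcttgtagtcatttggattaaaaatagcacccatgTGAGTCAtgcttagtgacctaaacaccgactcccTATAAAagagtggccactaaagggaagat
Mmp14: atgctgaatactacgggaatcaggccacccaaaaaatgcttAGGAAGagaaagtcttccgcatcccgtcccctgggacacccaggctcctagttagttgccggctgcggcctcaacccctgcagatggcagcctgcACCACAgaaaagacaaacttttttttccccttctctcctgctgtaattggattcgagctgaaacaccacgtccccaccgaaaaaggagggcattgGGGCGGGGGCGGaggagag
Timp1: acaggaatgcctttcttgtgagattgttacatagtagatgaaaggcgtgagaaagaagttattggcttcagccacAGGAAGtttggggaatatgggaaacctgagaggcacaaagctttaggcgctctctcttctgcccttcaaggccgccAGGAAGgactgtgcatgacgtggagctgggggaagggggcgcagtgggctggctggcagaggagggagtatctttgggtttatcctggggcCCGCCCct
The AP-1 letters were found in 2 of the 8 windows, those of Mmp13 and Mmp3, beginning 35 and 46 bases before the start, and in the window of Mmp10 they begin 63 bases before it. Of 32851 windows of the same length over the genome, 4.46% hold these letters. A TATAAA match was found in the same 2 of 8 windows, against 12.4% of all windows. GGGCGG was found in 6 of 8, those of Mmp11, Mmp14, Mmp15, Timp1, Timp2 and Timp3, against 32.7%. AGGAAG was present in 5 of 8 windows (29.5% of all) and TGTGGT in 2 of 8 (14% of all). No pair of matches overlapped, and a match is a description of letters, not of a bound factor.

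The libraries held 4200785 to 5416305 counts. The ribosomal RNA locus took 15.1% to 17.2% of the counts of J110 libraries and 0.779% to 1.27% of those of SSM3 libraries. J110 and SSM3 stand below for the libraries with those labels. Ncoa3, the mouse gene of AIB1, had 110, 106 and 102 counts in J110 and 181, 199 and 186 in SSM3, so it was not higher in the libraries labelled as carrying an AIB1 transgene. Ncoa3 therefore gave no check of the labels, and the direction of each result is that of the sample labels. Whether the transgene's transcript ends in a sequence that is counted as Ncoa3 is not given in the sources used here. The label of a mammary carcinoma line was checked with epithelial markers, whose summed level was 12592 to 13787 CPM in SSM3 (CPM, counts scaled to a common library size) and 2677 to 2767 CPM in J110. Nearly all of the J110 sum came from the keratin genes Krt8, at 1274.5 ± 37.9 CPM in J110 against 2270 ± 202 CPM in SSM3, and Krt18, which was higher in J110 at 1430.3 ± 18.1 and 970 ± 37.3 CPM (SD, n = 3). Epcam, an adhesion protein of epithelial cells, had 2, 1 and 7 counts in J110 against 2376 to 2412 in SSM3. Vim, an intermediate filament of mesenchymal cells, had 25068 to 26136 counts in J110 and 14 to 87 in SSM3. Epcam, Cldn4 and Esrp1 together stood in the J110 libraries at 0.0640%, 0.0656% and 0.294% of their SSM3 mean, and Vim in the SSM3 libraries at 0.147%, 0.359% and 0.0542% of its J110 mean.

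The proteinases Mmp14, Mmp15 and Mmp3 were higher in SSM3 and the inhibitors Timp1 and Timp2 were lower, as were the counts listed for Timp3, which overlap those of another gene. Of the 10 genes, 7 passed the filter on low counts, and edgeR's quasi-likelihood test called 3 higher and 3 lower in SSM3 at an adjusted p under 0.05. The lines differed widely, however: of 12284 genes tested, 38.6% were called higher, 39.2% lower and 77.9% in either direction, so that a call alone sets none of these genes apart. The 3 libraries of each line did not overlap for 7 of 7 tested members, beside 79.6% of all genes tested. Mmp3 and Mmp15 passed the filter through SSM3 and Timp3 through J110, the lines where they were high, so nothing is read from these counts. Ranked by the size of the log2 fold change, 7.8% of the tested genes changed more than Mmp15, 9.16% more than Timp3, 12.3% more than Mmp3 and 18% more than Timp1. For Mmp14 and Timp2 these shares were 26.2% and 26.3%. The median log2 fold change of the 7 was -0.43, against -0.014 over all genes tested.

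**Figure D1:**
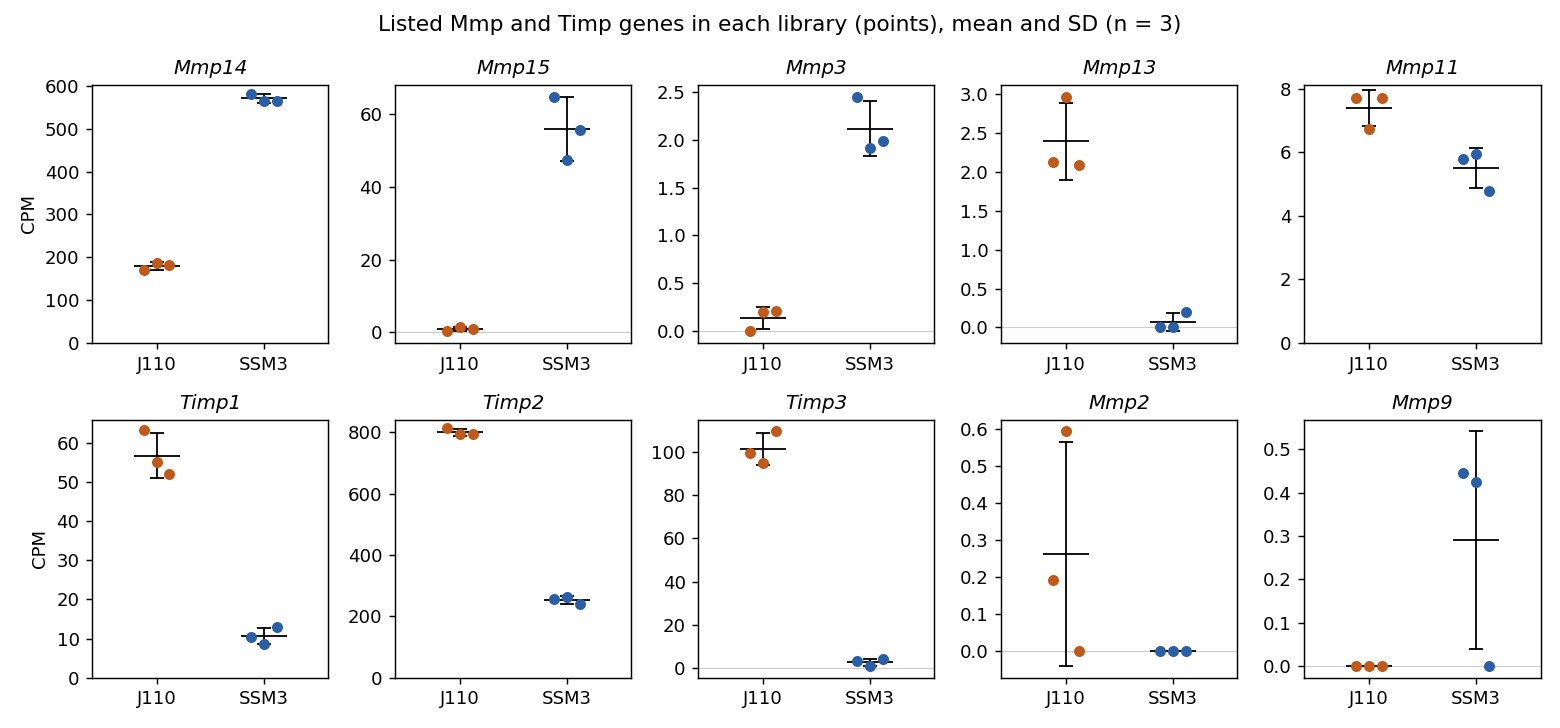
Level of each listed gene in CPM (vertical axis, its own linear scale in each panel) in the 3 J110 and the 3 SSM3 libraries, with points for libraries and bars for the mean and SD (n = 3). Mmp14, Mmp15 and Mmp3 sit higher in SSM3, Timp1, Timp2, Timp3 and Mmp13 sit higher in J110, and Mmp2 and Mmp9 stay at or under 3 counts in every library.

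Among the membrane-type enzymes, Mmp14 (ENSMUSG00000000957, mm10 chr14:54431612-54445364, forward strand) encodes MT1-MMP, a pericellular collagenase that also activates the proenzyme of MMP2. It had 884, 948 and 869 counts in J110 and 2613, 2662 and 2841 in SSM3. All SSM3 libraries lay about 3 times above all J110 libraries, and the spread within a line was small. The mean level was 180 ± 8.65 CPM in J110 against 571 ± 9.56 CPM in SSM3 (SD, n = 3), a log2 fold change of 1.67 with a standard error (SE) of 0.069 (adjusted p = 1.51e-12, edgeR quasi-likelihood test). In bulk RNA, a different number of cells that express a gene and a different amount of RNA per cell cannot be told apart.

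Mmp15 (ENSMUSG00000031790, chr8:95352268-95375080, forward strand) encodes MT2-MMP, another membrane-anchored enzyme. It had 2, 8 and 4 counts in J110 and 291, 223 and 279 in SSM3. J110 was thus near the detection limit, where 3 counts correspond to 0.578 to 0.668 CPM, and SSM3 was clear of it in each library. The means were 0.934 ± 0.605 and 55.9 ± 8.73 CPM (SD, n = 3), with a log2 fold change of 5.87 with SE 0.26 (adjusted p = 3.37e-12, edgeR quasi-likelihood test). Without J110 replicate 2, which held 8 of the J110 counts, it was 6.47. The J110 libraries stood at 0.690%, 2.83% and 1.49% of the SSM3 mean, each above the share of the epithelial markers Epcam, Cldn4 and Esrp1 in the same library.

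By the distance between log2 levels over the 6 libraries, among 9062 genes with a mean of at least 10 CPM over all 6, the genes most like Mmp15 were Gm10602, Tfap2a, Nlrc5, Sox12 and Il13ra1, at distances of 0.49 to 0.67. Tfap2a encodes the transcription factor AP-2 alpha, Nlrc5 a transactivator of MHC class I genes, Sox12 an HMG-box transcription factor and Il13ra1 a receptor chain for interleukin 13. Their levels were 0.537 to 2.46 CPM in J110 and 44.8 to 134 CPM in SSM3, and the likeness describes how the lines differ, since 6 libraries of 2 lines give few independent points.

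Of the other membrane-type genes, Mmp16, which encodes MT3-MMP, had 0 counts in every J110 library and 93, 106 and 104 in SSM3. At 21.3 ± 1.04 CPM (SD, n = 3) in SSM3 it was at least 34.0-fold higher than the J110 floor of 3 counts per library (adjusted p = 2.02e-10, edgeR quasi-likelihood test). Mmp24, which encodes MT5-MMP, had lower counts in SSM3, with 445, 465 and 443 counts in J110 and 160, 210 and 160 in SSM3. The means were 90.1 ± 3.71 and 37.4 ± 6.55 CPM (SD, n = 3), a log2 fold change of -1.27 with SE 0.11 (adjusted p = 2.16e-08 in that test). Mmp24 shares 637 exon bases at its 3′ end with BC029722, whose counts were 98.9% to 113% of those of Mmp24 in each library, so the reads cannot be given to either gene. Mmp17 and Mmp25, which encode membrane-type enzymes held by a glycolipid anchor, had at most 2 counts in any library.

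Of the secreted enzymes, Mmp3 and Mmp13 lie in the same cluster of chromosome 9 and were high in opposite lines, both at a low level. Mmp3 (ENSMUSG00000043613, chr9:7445822-7455975, forward strand) encodes stromelysin-1, which cuts proteoglycans, laminin and E-cadherin and activates other proenzymes. It had 0, 1 and 1 counts in J110 and 11, 9 and 10 in SSM3. All J110 libraries were under the floor of 3 counts and all SSM3 libraries were above it. The levels were 0.135 ± 0.117 and 2.12 ± 0.291 CPM (SD, n = 3), a ratio of 15.9 with a 95% counting interval of 4.02 to 137 (adjusted p = 4.85e-05, edgeR quasi-likelihood test).

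Mmp13 (ENSMUSG00000050578, chr9:7272514-7283331, forward strand) encodes collagenase-3, which cuts fibrillar collagen. It had 11, 15 and 10 counts in J110 and 0, 0 and 1 in SSM3. Here J110 was above the floor in each library and SSM3 below it. The levels were 2.39 ± 0.499 and 0.0663 ± 0.115 CPM (SD, n = 3), a ratio of 34.1 in favour of J110 with a counting interval of 5.74 to 1382 that rests on 1 count in SSM3 replicate 3. Mmp13 did not pass the filter on low counts and was not tested in the main fit. With every gene of at least 1 count in any library kept, it was called lower in SSM3, at a log2 fold change of -4.64 (adjusted p = 1.61e-07, edgeR quasi-likelihood test). Adjusted p-values of that fit were far smaller than in the main fit (for Timp3 5.70e-204 against 5.53e-13, same test). Only the direction is therefore read. With 1 SSM3 library left out Mmp13 also passed the filter, at -4.24 without replicate 1, -4.21 without replicate 2 and -6.55 without replicate 3, when no count was left in SSM3. It then passed through J110, where it was high, so no call is read from these fits.

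Mmp10, which encodes stromelysin-2 and lies between Mmp1a and Mmp8 in the cluster, had 45, 60 and 66 counts in J110 and 3, 5 and 6 in SSM3. The J110 level was 11.4 ± 2.58 CPM against 0.975 ± 0.274 CPM in SSM3 (SD, n = 3), with a log2 fold change of -3.50 with SE 0.33 (adjusted p = 6.08e-08, edgeR quasi-likelihood test). Mmp3, which starts 173 kb from the start of Mmp13, was therefore the gene of the cluster that was higher in SSM3, with Mmp13 and Mmp10 higher in J110 on either side of it. The cluster holds 10 Mmp genes over 427 kb, and the other 7 were at or under 3 counts in all libraries. Among these, the macrophage elastase gene Mmp12 had 1, 0 and 0 counts in J110 and none in SSM3. The collagenase gene Mmp1a had 2, 0 and 1 in SSM3 and none in J110. The matrilysin gene Mmp7 had 0, 1 and 1 in SSM3 and none in J110. Mmp27 had a single count, in J110, whereas Mmp1b, Mmp8, which encodes the neutrophil collagenase, and Mmp20, which encodes enamelysin of tooth enamel, had 0 counts in all 6 libraries, a count that allows up to 3 counts per library. The letters of the AP-1 motif occur in at least 1 promoter window of 7 of the 10 genes of the cluster, Mmp3, Mmp10 and Mmp13 included, so they were present beside genes high in J110, beside the gene high in SSM3 and beside genes at the floor in both lines.

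**Figure D2:**
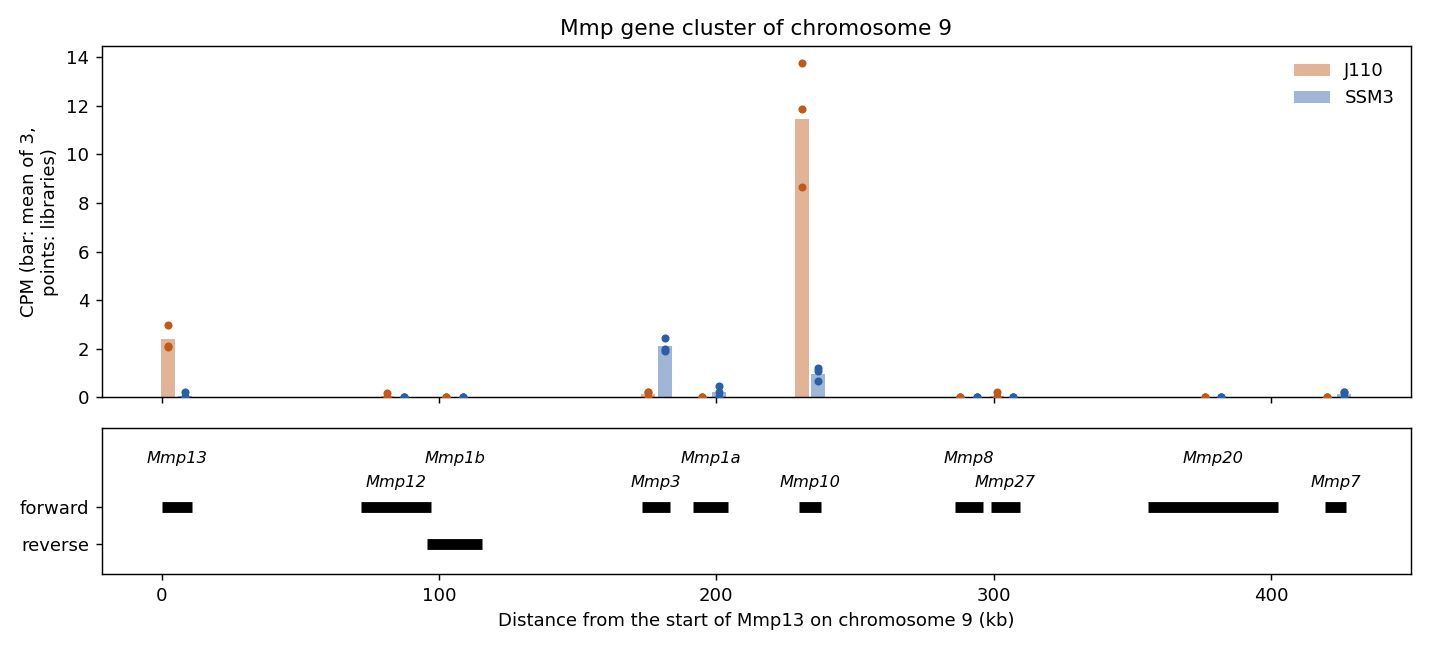
The Mmp cluster of chromosome 9, with CPM on the vertical axis of the upper panel (bars for the mean of 3 libraries, points for libraries) and gene positions as distance from the start of Mmp13 in kb below. Mmp13 and Mmp10 stand out in J110 and Mmp3 in SSM3, and the other 7 genes lie at or under 3 counts.

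Mmp11 (ENSMUSG00000000901, chr10:75923222-75936496, reverse strand) encodes stromelysin-3, an enzyme known from the stroma of breast carcinomas and activated inside the cell by furin. It had 40, 34 and 37 counts in J110 and 26, 28 and 24 in SSM3. Every SSM3 library lay below every J110 library, but the log2 difference was less than 2 standard errors. The levels were 7.39 ± 0.572 and 5.50 ± 0.635 CPM (SD, n = 3), and the log2 fold change of -0.43 with SE 0.23 did not pass the test (adjusted p = 0.0974, edgeR quasi-likelihood test). Mmp11 shares 155 exon bases with Chchd10, far from its 3′ end.

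The gelatinases Mmp2 and Mmp9, which cut denatured collagen and the type IV collagen of basement membranes, were not detectable at this depth in either line. Mmp2 (ENSMUSG00000031740, chr8:92827291-92853420) had 1, 3 and 0 counts in J110 and 0 in each SSM3 library. Mmp9 (ENSMUSG00000017737, chr2:164940780-164955850) had 0 in each J110 library and 2, 2 and 0 in SSM3. All these values are at or under the floor of 3 counts, so no fold is given. With every gene of at least 1 count in any library kept, edgeR's quasi-likelihood test called neither (adjusted p = 0.141 for Mmp2 and 0.119 for Mmp9). Mmp2 is also a gene of fibroblasts and Mmp9 of neutrophils and macrophages. Of the markers of these cells, Col1a2, Lum and Pdgfrb of fibroblasts, Adgre1 and C1qa of macrophages and Elane and Csf3r of neutrophils had 0 counts in all libraries. Others were detected: Pdgfra, a receptor of fibroblasts, had 3, 1 and 4 counts in J110 and 2, 9 and 2 in SSM3, the collagen gene Col1a1 had 5, 6 and 5 counts in J110 and none in SSM3, the lysozyme gene Lyz2 6, 10 and 0 in J110 and none in SSM3, and Vim, Cd68, S100a8 and S100a9 are given with their lists at the end.

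Counts of all 3 inhibitor genes were lower in SSM3, by different amounts, and those of Timp3 are shared with another gene. Timp2 (ENSMUSG00000017466, chr11:118301069-118355740, reverse strand) encodes an inhibitor that blocks membrane-type enzymes and, bound to MT1-MMP, also serves as the receptor for the proenzyme of MMP2. It had 4215, 4020 and 3800 counts in J110 and 1151, 1245 and 1209 in SSM3. J110 was about 3 times above SSM3 with no overlap. The means were 800.2 ± 10.8 and 254 ± 12.1 CPM (SD, n = 3), with a log2 fold change of -1.66 with SE 0.068 (adjusted p = 1.22e-12, edgeR quasi-likelihood test). Cep295nl, annotated within Timp2 with no shared exon base, had at most 4 counts.

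Timp1 (ENSMUSG00000001131, chrX:20870166-20874735, forward strand) encodes a secreted inhibitor that blocks most soluble enzymes but binds MT1-MMP poorly. It had 328, 279 and 249 counts in J110 and 47, 41 and 65 in SSM3. The means were 56.8 ± 5.81 and 10.7 ± 2.12 CPM (SD, n = 3), which is 5.31-fold higher in J110, and the log2 fold change was -2.40 with SE 0.15 (adjusted p = 2.66e-10, edgeR quasi-likelihood test). The SSM3 libraries kept 18.4%, 15.3% and 22.8% of the J110 mean, so Timp1 was clearly present in both lines. The gene lies inside Syn1, on the opposite strand and with no shared exon base, and Syn1 had 14 to 20 counts per library.

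Timp3 (ENSMUSG00000020044, chr10:86300372-86349506, forward strand) encodes the inhibitor that stays bound to the extracellular matrix and also blocks ADAM17 and aggrecanases. It had 515, 479 and 524 counts in J110 and 15, 5 and 21 in SSM3. Of the inhibitors it changed most, from 101 ± 7.47 to 2.86 ± 1.61 CPM (SD, n = 3), a mean 35.4-fold higher in J110. The log2 fold change was -5.12 with SE 0.20 (adjusted p = 5.53e-13, edgeR quasi-likelihood test). SSM3 libraries stood at 3.30%, 1.05% and 4.13% of the J110 mean, more than the 0.0542% to 0.359% at which Vim stood in them. The last exon of Timp3 shares 1733 bases with a transcript of Syn3 on the opposite strand, and Syn3 counts, 478, 453 and 476 in J110 and 14, 4 and 21 in SSM3, were 80.0% to 100% of those of Timp3 library by library. The strand setting of the counting is not given in the sources used here, so the counts alone do not give these reads to Timp3 or to Syn3. Timp4, which encodes the remaining inhibitor, had 0 counts in all 6 libraries.

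**Figure D3:**
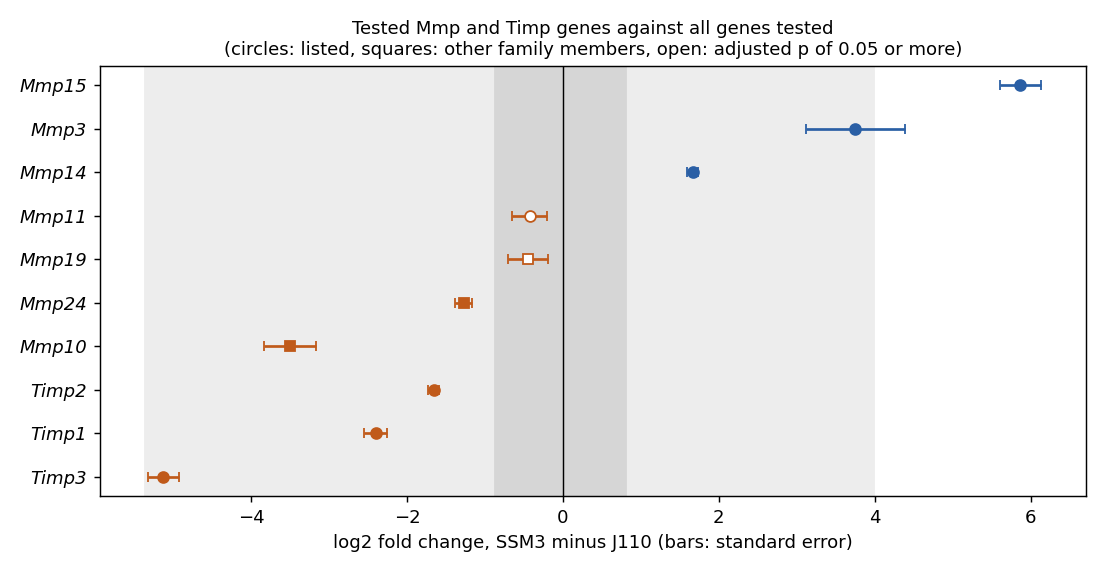
Log2 fold change of SSM3 minus J110 (horizontal axis, bars for the standard error) of the tested Mmp and Timp genes, with shading for the middle 50% and 90% of all 12284 genes tested. Circles are listed genes, squares other family members and open symbols did not pass the test. Mmp15 at 5.87 lies beyond the 95% quantile of 3.99, and Timp3 at -5.12 stays within the 5% quantile of -5.36. Mmp16 is not drawn because it had 0 counts in J110.

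Within a library, proteinase counts rose against inhibitor counts from J110 to SSM3. The 7 Mmp genes summed to 181, 200 and 192 CPM in J110 and to 655, 621 and 628 CPM in SSM3. The 3 Timp genes summed to 975, 945 and 954 CPM in J110 and to 270.1, 274 and 258 CPM in SSM3. The log2 ratio of the sums was -2.33 ± 0.095 in J110 and 1.25 ± 0.059 in SSM3 (SD, n = 3), so it was 3.58 higher in SSM3, an 11.9-fold difference. This ratio needs no scaling between libraries. Its value within a library is not a ratio of molecules, because counts were not scaled by length and genes differ in how well their 3′ ends are counted, so only its difference between the lines is read. As a score over genes listed by name it has no test. Over all 27 Mmp and Timp genes the difference was 3.06, an 8.36-fold one. That ratio includes Mmp24, and both ratios include Timp3, whose counts overlap those of BC029722 and Syn3 in turn.

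Both sums rested mostly on a single gene. Mmp14 made up 94.0% to 94.4% of the Mmp sum in J110 and 88.8% to 91.0% in SSM3, and Timp2 made up 83.1% to 84.1% of the Timp sum in J110 and 93.4% to 96.4% in SSM3. The log2 ratio of Mmp14 to Timp2 was -2.25, -2.08 and -2.13 in J110 and 1.18, 1.10 and 1.23 in SSM3, a mean difference of 3.33. The pair that forms the cell surface complex around the MMP2 proenzyme thus changed in opposite directions, each by about 3-fold, while Mmp2 itself was not detectable. Timp1 fell more than Timp2, with a log2 ratio of -3.82 ± 0.13 in J110 and -4.59 ± 0.35 in SSM3 (SD, n = 3).

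**Figure D4:**
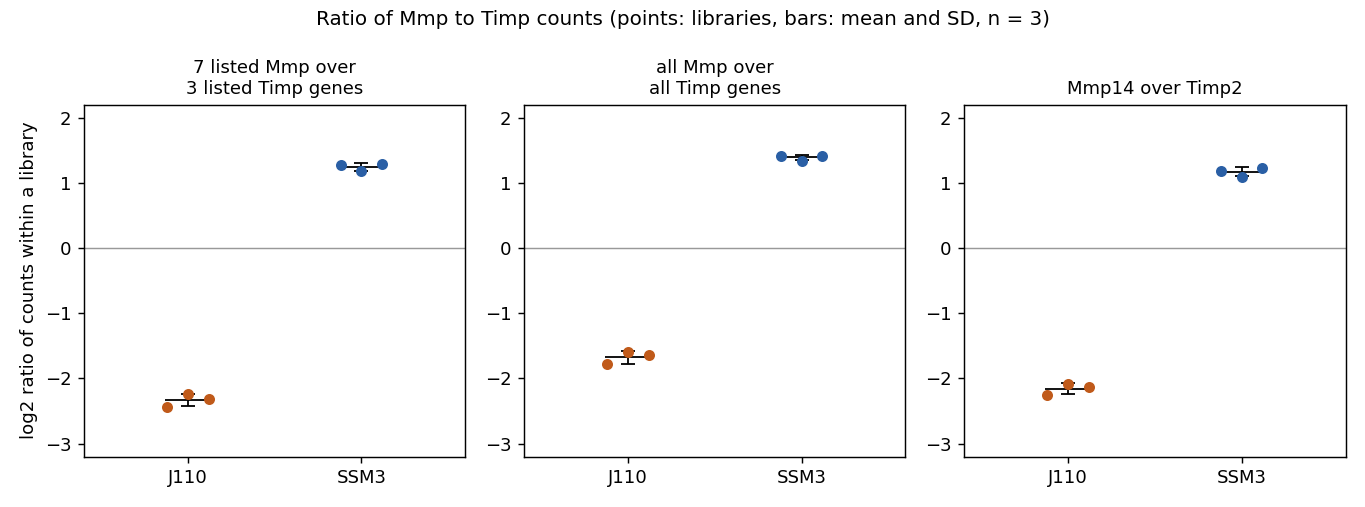
Log2 ratio within each library (vertical axis) of the summed counts of the 7 listed Mmp to the 3 listed Timp genes, of all Mmp to all Timp genes, and of Mmp14 to Timp2, with points for libraries and bars for the mean and SD (n = 3). In each panel all J110 libraries lie below 0 and all SSM3 libraries above it, and only the difference between the lines can be read.

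The family holds 17 further Mmp and Timp genes. A count was seen for 12 of them, 4 passed the filter, 1 was called higher in SSM3 (Mmp16) and 2 lower (Mmp10 and Mmp24), beside 38.6% and 39.2% of all genes tested. Mmp16 passed the filter through SSM3 and Mmp10 through J110, the lines where they were high, so nothing is read from these counts. Mmp19, which encodes a secreted enzyme of basement membrane turnover, had 40, 44 and 30 counts in J110 and 22, 20 and 37 in SSM3. These ranges overlap, and its log2 fold change of -0.45 with SE 0.26 did not pass edgeR's quasi-likelihood test (adjusted p = 0.120). Without SSM3 replicate 3 it was called lower, at -0.72 (adjusted p = 0.0262 in the same test). It shares 789 exon bases at its 3′ end with Tmem198b, whose counts were 85.0% to 103% of its own, and it also shares exon bases with Gm47093. Mmp23 had 0, 1 and 0 counts in J110 and 1, 0 and 1 in SSM3, and Mmp28, which encodes epilysin, had 1, 0 and 4 in J110 and none in SSM3. Mmp17 had 1 count in all and Mmp25 had 2, each in a single SSM3 library. Mmp21 had none.

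Of 18 other genes that activate, clear or anchor these enzymes, 11 were tested, 7 were lower and 3 higher in SSM3, beside the 39.2% and 38.6% of all genes tested, with a median log2 fold change of -2.71 against -0.014 for all genes tested. Several, such as Lrp1 and Plau, passed the filter through J110, where they were high, so nothing is read from these counts or this median. Lrp1, the endocytic receptor that clears MMP and TIMP complexes, had 648, 698 and 505 counts in J110 and 5, 6 and 3 in SSM3, a log2 fold change of -6.93 with SE 0.20 (adjusted p = 1.57e-14, edgeR quasi-likelihood test). Cd44, a hyaluronan receptor that anchors MT1-MMP and MMP9 at the surface, stood at 726 ± 57.2 CPM in J110 against 12.1 ± 1.11 CPM in SSM3 (SD, n = 3). The plasminogen activator system, which feeds proenzyme activation, also showed lower Plau and Plaur, the genes of urokinase and its receptor, with log2 fold changes of -3.16 with SE 0.28 and -2.71 with SE 0.14 (adjusted p = 2.48e-08 and 2.64e-11). For Plau it was -3.75 without SSM3 replicate 1. The opposite was seen for Serpine2, the gene of protease nexin-1, at 7.36 ± 2.03 CPM in J110 against 120 ± 9.66 CPM in SSM3 (SD, n = 3). Furin, the proprotein convertase that activates MT1-MMP and stromelysin-3, was higher in SSM3 as well, with 652, 689 and 807 counts in J110 and 1528, 1414 and 1983 in SSM3 (log2 fold change 1.27, SE 0.11, adjusted p = 2.06e-08, edgeR quasi-likelihood test). It shares exon bases with Gm44851. Bsg, which encodes the MMP inducer basigin, was at 227 ± 13.5 and 217 ± 5.89 CPM (SD, n = 3) and did not pass the test (log2 fold change -0.065, SE 0.073, adjusted p = 0.426). Reck, a membrane-anchored MMP inhibitor, had 1 count in all.

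The ADAM and ADAMTS genes encode related metalloproteinases that shed cell surface proteins or cut proteoglycans. Of 18, 9 were tested, 6 were higher and 3 lower in SSM3, beside 38.6% and 39.2% of all genes tested, and the median log2 fold change was 0.57 against -0.014 over all. Adam19, Adam12, Adam9 and Adamts7 passed the filter through the line where they were high, so nothing is read from these counts or this median. The lower ones fell far: Adam19 had 350, 271 and 303 counts in J110 and 0, 1 and 0 in SSM3, a ratio of 874 with a counting interval of 157 to 34567 that rests on 1 count in SSM3 replicate 2, and it shares exon bases with Gm16033 and Gm16034. Adam12, which encodes meltrin alpha, had 455, 411 and 358 counts in J110 and 2, 1 and 0 in SSM3, a ratio of 386 (132 to 1874), and its fitted log2 fold change moved from -8.42 to -9.31 without SSM3 replicate 1. Adam9 was at 95.1 ± 6.44 CPM in J110 against 5.77 ± 3.98 CPM in SSM3 (SD, n = 3). The higher ones included Adam10, the alpha-secretase sheddase, with 534, 508 and 612 counts in J110 and 1283, 1226 and 1403 in SSM3 (log2 fold change 1.32, SE 0.092, adjusted p = 1.30e-09, edgeR quasi-likelihood test). Adam17, the TNF-converting enzyme that TIMP3 blocks, rose from 62.4 ± 4.11 to 92.3 ± 10.6 CPM (SD, n = 3), a log2 fold change of 0.57 with SE 0.099 (adjusted p = 6.35e-05 in that test), and shares 311 exon bases at its 3′ end with Iah1. Adamts7 had 1, 1 and 3 counts in J110 and 10, 10 and 14 in SSM3 (log2 fold change 2.75, SE 0.52, adjusted p = 0.000141), and without J110 replicate 3 the log2 fold change was 3.44.

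Of 20 genes of matrix and surface proteins that these enzymes cut, 16 were tested and all 16 were called, beside 77.9% of all genes tested. Several, such as Col5a2, Col4a1 and Dcn, passed the filter through the line where they were high and had to differ, so nothing is read from that count. Of the 16, 13 were lower (39.2% of all) and 3 higher in SSM3 (38.6% of all), with a median log2 fold change of -4.78 against -0.014. The same genes enter this split and this median, so nothing is read from them either. Col4a1, a chain of basement membrane collagen, had 830, 830 and 710 counts in J110 and 1, 1 and 0 in SSM3, a ratio of 1121 with a counting interval of 310.03 to 9263. Col5a2, a fibrillar collagen, had 334, 254 and 268 counts in J110 and none in SSM3, which is at least 85.1-fold lower. Fn1, the gene of fibronectin, was at 666 ± 35.2 CPM in J110 against 67.2 ± 1.62 CPM in SSM3 (SD, n = 3). Lamb3, a chain of laminin-332, was at 309.5 ± 13.96 and 75.1 ± 6.71 CPM. In the other direction, Dcn, which encodes the small proteoglycan decorin, had 0, 1 and 12 counts in J110 and 6643, 6698 and 6712 in SSM3 (log2 fold change 10.63, SE 0.24, adjusted p = 1.10e-15, edgeR quasi-likelihood test). It rested on how few J110 counts there were, with 10.02 without J110 replicate 1 and 13.48 without replicate 3. Cdh1, the gene of E-cadherin, had 21, 11 and 28 counts in J110 and 6019, 6369 and 7179 in SSM3 (log2 fold change 8.42, SE 0.15, adjusted p = 8.67e-17).

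Transcription factors known to act at Mmp promoters changed in both directions, with 19 of 20 tested, 8 higher and 10 lower in SSM3, beside 38.6% and 39.2% of all genes tested, and a median log2 fold change of -0.57. Several, Fosl1, Etv1, Snai2, Fosb and Elf3 among them, passed the filter through the line where they were high, so nothing is read from these counts or this median. Fosl1, an AP-1 subunit, had 607, 612 and 491 counts in J110 and 0, 5 and 0 in SSM3 (log2 fold change -8.23, SE 0.29, adjusted p = 1.69e-13, edgeR quasi-likelihood test), and -7.64 without SSM3 replicate 3. Without SSM3 replicate 2 no count was left in SSM3. Jund and Junb had the highest mean log2 CPM of the list over all 6 libraries. Jund stood at 107 ± 1.40 CPM in J110 against 391 ± 49.1 CPM in SSM3 (SD, n = 3), and Junb, which shares 173 exon bases at its 3′ end with Prdx2, differed little at 225 ± 8.92 and 267 ± 41.7 CPM (log2 fold change 0.25, SE 0.094, adjusted p = 0.0235). The call of Junb was lost without J110 replicate 1 (adjusted p = 0.0962), J110 replicate 3 (adjusted p = 0.0855) or SSM3 replicate 1 (adjusted p = 0.162). The ETS factor Etv1 had 80, 81 and 91 counts in J110 and 0, 0 and 1 in SSM3, a ratio of 238 (42.4 to 9454) that rests on 1 count in SSM3 replicate 3. Elf3, an epithelial ETS factor, had 1, 1 and 4 in J110 and 53, 65 and 54 in SSM3. Snai2, the repressor Slug, had 227, 262 and 237 in J110 and 0, 1 and 0 in SSM3, a ratio of 687 (123 to 27168) that rests on 1 count in SSM3 replicate 2. Without those replicates the fitted log2 fold changes moved from -7.45 to -9.35 for Etv1, from -8.98 to -10.89 for Snai2 and from -9.32 to -11.23 for Adam19, each with no count left in SSM3. The windows of Mmp3, Mmp10 and Mmp13 with AP-1 letters were thus found together with AP-1 genes that moved in opposite directions, and their part in the Mmp levels was not tested.

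**Figure D5:**
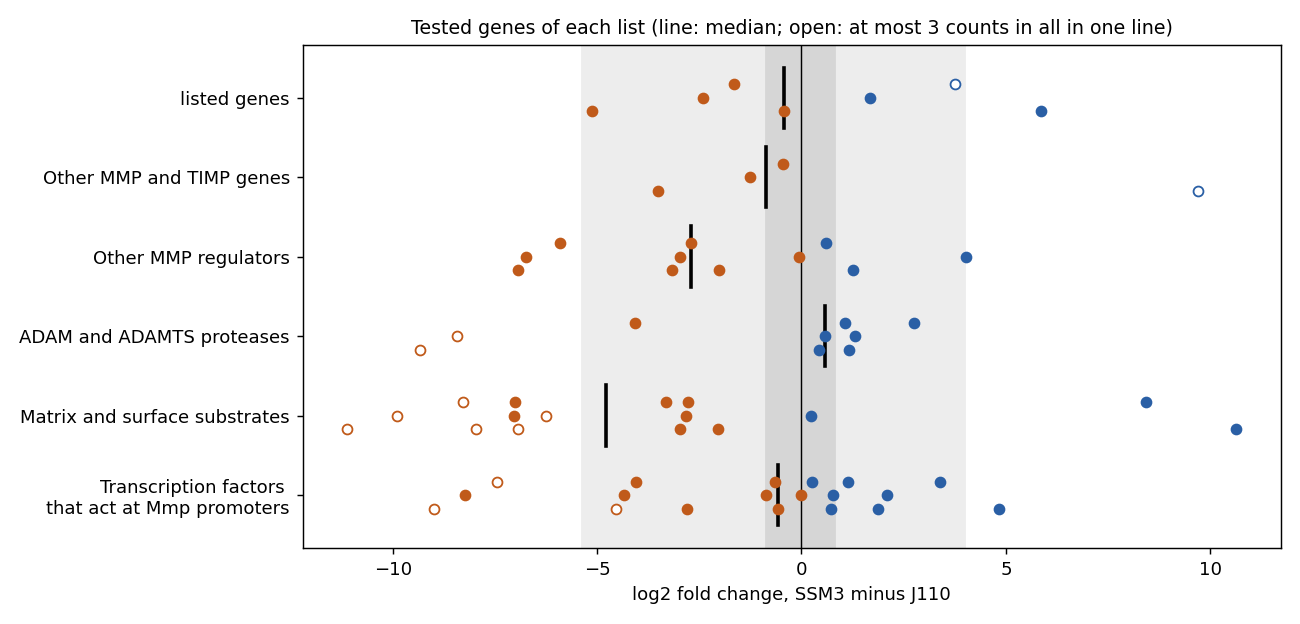
Log2 fold change of SSM3 minus J110 (horizontal axis) for the tested genes of each list, with points for genes and a black line for the list's median. Open points had at most 3 counts in all in one line, and shading covers the middle 50% and 90% of all genes tested. Of the lists drawn, the substrates have the lowest median, -4.78, and the ADAM and ADAMTS genes the highest, 0.57. Several genes of these lists passed the filter through the line where they were high, so nothing is read from this order. The shading is the spread of single genes, not of medians.

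Markers of several other cell types also differed between the lines, in both directions. The 8 mesenchymal or fibroblast markers summed to 4960 to 5456 CPM in J110, almost all from Vim, and to 3.38 to 20.4 CPM in SSM3, and 5 of the 8 in J110 and 6 in SSM3 were at or under the floor. The 4 endothelial markers summed to 158 to 181 CPM in J110 and 0 to 0.425 CPM in SSM3, mostly from Cdh5 (836, 790 and 856 counts in J110), while the endothelial receptor gene Tie1 was at 0. The 6 macrophage markers summed to 29.0 to 37.0 CPM in J110 and 14.7 to 16.99 CPM in SSM3. Most came from Cd68 (115, 95 and 70 counts in J110 and 9, 5 and 6 in SSM3) and from Csf1r, whose 3′ end shares 873 exon bases with Hmgxb3. The counts of Hmgxb3 were 100% to 104% of those of Csf1r, and the pan-leukocyte gene Ptprc had at most 2 counts in a library. The 5 neutrophil markers summed to 5.40 to 7.30 CPM in J110 and 21.6 to 26.3 CPM in SSM3, with members that went opposite ways. S100a8 had 14, 22 and 19 counts in J110 and 97, 119 and 132 in SSM3, whereas S100a9 had 14, 8 and 15 in J110 and none in SSM3. The 4 mast cell markers were at 0. The part of these differences in the levels of the Mmp and Timp genes was not tested.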

How the data were processed

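RNA of 3 J110 and 3 SSM3 libraries was sequenced with a 3′ mRNA-seq kit. The authors trimmed reads, mapped them to mm10 with HISAT2 (2.0.4 in the submitters' processing notes), counted them per gene with featureCounts (Subread 2.0.0) and deposited raw counts with no normalisation. Strand setting and handling of reads over several genes are not given in the sources used here. Of the identifiers, 52489 (99.72%) matched GENCODE (M21) annotation of GRCm38, which gave symbols, coordinates and exon overlaps.

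Here, all 6 libraries, grouped by the cell line in their labels, entered edgeR 4.0.16 (R 4.3.3): filterByExpr, TMM, and the quasi-likelihood test of SSM3 minus J110 over 12284 genes with Benjamini-Hochberg adjustment at 0.05. TMM factors ranged from 0.920 to 1.07. Standard errors are the log2 fold change divided by the square root of F. CPM are counts per 1000000 of the TMM-scaled library size. Levels up to 3 counts per library were taken as the floor, and 95% intervals of ratios are exact binomial and cover counting error only. Replicates differed by more than sampling noise (chi-square per degree of freedom 2.21 to 5.62). Whether replicates were separate cultures beyond their biological label is not given, and p-values measure only the spread between them.

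In counts simulated for this comparison on 12284 genes, with 200 changed, 99% of 4-fold and 89% of 2-fold changes were recovered. In the data 77.9% of the genes tested were called, so these rates do not cover a comparison in which most genes differ. The members, the gene lists and the tests were chosen with earlier results of these data known. Named genes are the 10 members, other Mmp and Timp genes with a count, in each list the 4 called genes with the largest log2 fold change and the 2 highest, the 5 genes most like Mmp15, and genes that share exons with these. A result of 1 gene chosen by this rule is not reported here. Plau, Plaur, Reck, Fosb, Mmp1b, Mmp8, Mmp20, Mmp21, Timp4 and the markers were named in addition, after their values were seen. Alternatives covered DESeq2 1.42.0, limma-voom 3.58.1, scalings, filters, a fold threshold, a replicate block and leaving out libraries.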

Additional observations from a re-analysis of the deposited data

How the results depend on the processing

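None of the 6 called genes changed direction or its side of the threshold under the 15 alternatives that gave it a value, with DESeq2, limma-voom, other scalings and filters, a replicate block and each library left out. Mmp11 stayed uncalled, with log2 fold changes of -0.50 to -0.25 and adjusted p values of 0.0587 to 1. Requiring at least 10 counts in every library left 1 gene called higher (Mmp14) and 2 lower (Timp1 and Timp2), since Mmp3, Mmp15 and Timp3 were then not tested. Mmp13 entered the test and was called lower when any of the SSM3 libraries was left out, with the rRNA locus taken out of the library size, or with all genes kept. In all but the last of these it passed the filter through J110, where it was high, so nothing is read from those calls. Mmp3 was not tested without the rRNA locus. Testing for a change over 2-fold called 4272 genes in place of 9566. The difference of the log2 Mmp to Timp ratio was 3.06 with every Mmp and Timp gene and 3.97 with the mean of log2 CPM in place of sums, and 3.53 to 3.62 without each library in turn. Without J110 replicate 3 and SSM3 replicate 2 together, an alternative chosen after seeing the data, it was 3.62. Same-numbered replicates did not deviate together (correlations 0.0118 to 0.0268), so the numbers do not pair the samples, and the fit with the replicate block called 9481 genes. Genes under the floor of 3 counts, Mmp2 and Mmp9 among them, could not be compared at this depth.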
